A study of Mus musculus with 20 samples.

Results

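Trim71 and 9 protein-coding genes near it on mouse chromosome 9 were followed across the 5 genotype groups of a study of mouse embryonic stem cells. The 10 genes were chosen by name, as Trim71, Ccr4, Cnot10, Crtap, Glb1, Gpd1l, Pdcd6ip, Fbxl2, Dync1li1 and Clasp2, and all 10 had a row among the 13283 genes of the deposited table. Bulk RNA sequencing had been done on 20 libraries of C57BL/6 cells labelled male, kept in medium with fetal calf serum, LIF and the 2i inhibitors. Trim71-KO cells (4 libraries), in which Trim71 was deleted, were set against Trim71-cond cells (4 libraries), whose genotype label is Trimfl/fl, a floxed allele that is still in place. In the other system the Trim71 change R595H was studied in R595H/R595H cells (clones C14, C20 and C24), R595H/+ cells (clones C15, C21 and C23) and WT cells (clones C16, C7 and C5). Clones C14, C15 and C16 have a library from each of 2 dates, written 20/1 and 5/2, which were averaged, so each of these groups counts 3 clones. The labels give neither the floxed exon nor the Cre used, and they do not say whether the Trim71-KO libraries stem from separate deletions.

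TRIM71 is a RING-type ubiquitin ligase that also binds RNA through its NHL repeats and represses target mRNAs. It is made in pluripotent cells and embryonic progenitors, and its own mRNA is a classical target of the let-7 microRNAs, which accumulate as cells differentiate. Amino acid changes in the NHL repeats, R595H among them in the mouse protein, are studied because changes of the human gene have been found in congenital hydrocephalus. The neighbouring genes were chosen for their place on the chromosome, and their tasks range from mRNA deadenylation to lysosomal digestion.

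In the GENCODE annotation of GRCm38 (release M21), Trim71 runs from 114507133 to 114564369 on the minus strand of chromosome 9, in 4 exons that give a transcript of 9332 bases with a 3′ UTR of 5512 bases. Exon 4 holds 56.5% of the coding bases and the whole 3′ UTR. The codon that R595H changes is in exon 4, shown here in capitals with its flanks as the site that distinguishes the clonal genotypes. It reads AGG, the reference codon of arginine, and 0 single-base changes of it give histidine.

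Trim71 codon of R595H, chr9:114513398-114513460, minus strand, GRCm38: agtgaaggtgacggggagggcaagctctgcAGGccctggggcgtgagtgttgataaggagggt

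The 3′ UTR carries 4 matches to the seed of let-7 (the letters CTACCTC, searched on the transcript strand of annotated 3′ UTRs), where 10.4% of 13070 genes of the table have at least 1 and 0.084% have 4 or more. Clasp2 has 1 and the other 8 genes have 0. They are shown because let-7 is the known repressor of Trim71, with the seed of the microRNA (bases 2 to 8, RefSeq, GRCm38) and the letters that pair with it in capitals. A match is a description of these letters and not a measured site.
mmu-let-7a-5p: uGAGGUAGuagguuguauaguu
Trim71 site 1: caacattgcctaagtcCTACCTCa
Trim71 site 2: aagtgataatttctatCTACCTCa
Trim71 site 3: gtttagtatggattttCTACCTCa
Trim71 site 4: tttggcaaaaagttgtCTACCTCa

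The 10 genes lie within 1.282 Mb, in the order Pdcd6ip, Clasp2, Fbxl2, Crtap, Glb1, Ccr4, Trim71, Cnot10, Dync1li1 and Gpd1l from the low to the high coordinate. Ccr4 is the nearest to Trim71. It lies on the same strand, from 114490316 to 114504916, and its upper end is 2216 bases below the 3′ end of Trim71. Cnot10, also on the minus strand, has its 3′ end 21508 bases above the 5′ end of Trim71, and the starts of these genes are 75.8 kb apart. Glb1 ends 32234 bases below the 3′ end of Trim71, beyond Ccr4. The library kit does not mark strand, so reads of overlapping exons cannot be assigned to one gene. Such overlaps are short here: Fbxl2 shares 496 exonic bases (11.2% of its own) with Ubp1 on the other strand, Glb1 shares 165 with Tmppe, and Trim71 shares 135 with C130032M10Rik, which was not analysed here.

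The promoters of Trim71 and Ccr4 (RefSeq, GRCm38.p6, 250 bases before to 50 after the start) are printed because these adjacent genes gave the largest differences below. CG pairs are in capitals. Trim71 has 19 of them and Ccr4 has 3, against a median of 7 over 32841 promoters of the same length. Neither count is rare, as 26.5% of these promoters have more than Trim71 and 23.3% have fewer than Ccr4. The start that RefSeq gives for Ccr4 lies inside the longer GENCODE gene.
Trim71 promoter, chr9:114564320-114564619, minus strand: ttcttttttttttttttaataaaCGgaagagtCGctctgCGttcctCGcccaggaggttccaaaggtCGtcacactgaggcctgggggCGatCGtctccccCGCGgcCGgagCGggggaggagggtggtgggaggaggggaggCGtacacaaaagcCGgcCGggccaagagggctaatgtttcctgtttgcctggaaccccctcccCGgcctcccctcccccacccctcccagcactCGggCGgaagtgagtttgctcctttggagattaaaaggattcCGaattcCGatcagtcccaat
Ccr4 promoter, chr9:114496495-114496794, minus strand: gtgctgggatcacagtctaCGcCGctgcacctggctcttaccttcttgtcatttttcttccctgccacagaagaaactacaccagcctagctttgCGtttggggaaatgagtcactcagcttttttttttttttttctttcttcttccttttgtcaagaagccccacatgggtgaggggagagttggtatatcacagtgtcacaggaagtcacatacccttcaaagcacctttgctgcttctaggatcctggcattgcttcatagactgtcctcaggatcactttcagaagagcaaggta

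Values are the ones the authors deposited, already scaled between libraries and on a log scale whose base was taken to be 2. Folds are powers of 2 of a difference and rest on that reading. Depth per library is unknown. Library medians over all genes lay between 5.15 and 5.20. The stem cell markers Pou5f1, Nanog, Sox2, Zfp42, Esrrb, Klf4, Tdgf1 and Dppa5a were all at 7.22 or above in every library. They were not at one level across the groups: in Trim71-KO against Trim71-cond 4 of the 8 rose, Klf4 (0.74), Nanog (0.39), Tdgf1 (0.30) and Sox2 (0.23), and Zfp42 (-0.20) fell, and Klf4 also rose in R595H/R595H against WT (0.47). The markers of fibroblasts averaged between 2.07 and 2.30 over the 3 of 8 that were in the table. Markers of neural progenitors (3 of 4 in the table) averaged between 4.57 and 4.77 in Trim71-KO and between 4.37 and 4.54 in Trim71-cond, without overlap. Of the 2 tested there, Olig2 rose by 0.50 (limma adjusted p = 0.0013) and the other differed by 0.07 without a call. Y-linked genes (mean of 5) stood between 5.20 and 5.33 in the Trim71-KO libraries and between 5.49 and 5.78 in the Trim71-cond libraries, without overlap, and 3 of the 4 tested fell in Trim71-KO, Zfy1 (-0.53), Ddx3y (-0.40) and Uty (-0.40). Their part in the results below was not tested. The mean ranged from 3.56 to 5.63 among the clonal libraries, although all are labelled male.

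Levels were compared between genes after division by exonic length (log2 of the value per kb, group means). Trim71 stood at 4.25 in Trim71-KO, below Dync1li1, Glb1, Cnot10, Clasp2 and Crtap and level with Pdcd6ip (4.26), and at 5.73 in Trim71-cond, below Dync1li1 only. In the clones it was the most abundant of the 10, at 6.89 in R595H/R595H, 6.36 in R595H/+ and 6.28 in WT, where Dync1li1, the next, had 6.22, 6.13 and 6.05. Ccr4 stood at 3.28 in Trim71-KO, and at 1.43 in Trim71-cond, 1.47 in R595H/R595H, 1.47 in R595H/+ and 1.42 in WT. In Trim71-KO it was above Fbxl2 (1.95), and in the other 4 groups it was the least abundant of the 10. Undivided, the mean of Trim71 over all 17 libraries or clones was above that of 95.4% of the genes in the table, and the mean of Ccr4 above that of 29.7%.

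Deletion of Trim71 was accompanied by a lower Trim71 signal and by a higher signal of Ccr4. Trim71 had 7.44, 7.43, 7.47 and 7.53 in the Trim71-KO libraries 1A, 2B, 3A and 3B, against 8.94, 8.94, 8.93 and 9.01 in the Trim71-cond libraries of the same codes. The groups did not overlap and the libraries of each lay within a narrow band. The mean was 7.47 ± 0.05 in Trim71-KO and 8.95 ± 0.04 in Trim71-cond (SD, n = 4 each), a difference of -1.48 ± 0.06 (SE) on the log2 scale, with a limma adjusted p of 8.2e-14 by the Benjamini-Hochberg method. This left 35.8% of the Trim71-cond level, and which exons the remaining reads cover cannot be read from one value per gene. By fall in log2 value Trim71 ranked 1 among 9580 genes tested.

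Ccr4 encodes the receptor of the chemokines CCL17 and CCL22 on T cells. It has nothing but its name in common with the CCR4-NOT deadenylase complex, of which Cnot10 is a subunit. Ccr4 had 4.79, 5.16, 4.71 and 4.97 in the Trim71-KO libraries 1A, 2B, 3A and 3B, against 3.16, 3.13, 3.07 and 2.87 in the Trim71-cond libraries of the same codes. Every Trim71-KO library was above every Trim71-cond library by more than the range of either group. The mean was 4.91 ± 0.20 in Trim71-KO and 3.06 ± 0.13 in Trim71-cond (SD, n = 4 each). The difference of 1.85 ± 0.10 (SE) on the log2 scale is a 3.60-fold higher value (limma adjusted p = 4.6e-11), and by rise Ccr4 ranked 1 among the 9580 genes. Its differences by code were 1.63 (1A), 2.03 (2B), 1.64 (3A) and 2.10 (3B). Ccr4 passed the filter on low values (a mean of at least 3.32) only through the Trim71-KO libraries, so its place among the tested genes is itself set by that group. For both genes the two-sided exact permutation p was 0.0286, the smallest that 4 against 4 libraries allow.

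**Figure D1:**
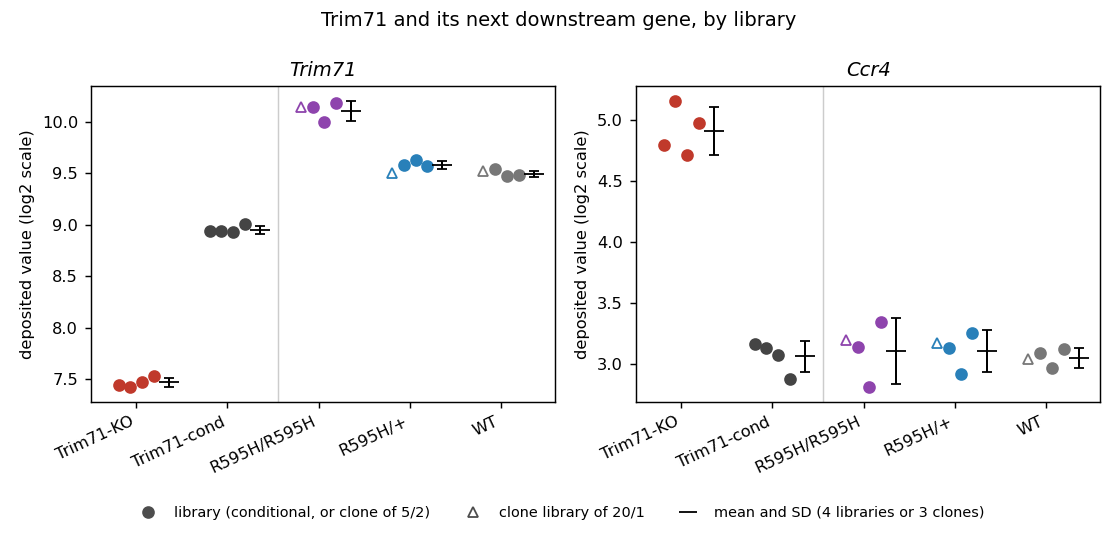
Deposited values (log2 scale) of Trim71 and Ccr4 in every library, with the mean and SD of 4 libraries (Trim71-KO, Trim71-cond) or 3 clones (R595H/R595H, R595H/+, WT) in black and the 20/1 libraries as open triangles. Trim71 was lowest in Trim71-KO (7.47) and highest in R595H/R595H (10.1), and Ccr4 was above 4.7 in the 4 Trim71-KO libraries and below 3.4 in all others.

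Beside Ccr4, the markers of T cells gave no call in the Trim71-KO libraries. Of a list of 10 markers of T cells and other leukocytes, Cd3d, Cd3e, Cd3g and Lck had rows in the table, and Ptprc, Cd2, Cd4, Cd8a, Cd28 and Foxp3 were not analysed here. Neither of the 2 that passed the filter was called between Trim71-KO and Trim71-cond, with differences of -0.01 and 0.08. The log2 of the summed level of the 4 markers ranged from 5.66 to 5.96 in Trim71-KO and from 5.67 to 6.01 in Trim71-cond. In the clones Cd3d and Cd3g were higher in R595H/R595H than in WT, by 0.91 ± 0.12 and 0.90 ± 0.11 (SE; limma adjusted p = 0.0017 and 0.0013), while Ccr4 differed by 0.06. In bulk samples, a change in the share of cells that express a gene and a change in its level per cell cannot be told apart.

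Of the other 8 genes, Gpd1l was lower and Pdcd6ip higher after the deletion. With Trim71 and Ccr4 this makes 4 of 10 called at an adjusted p under 0.05, 2 higher and 2 lower, against 18.6% of all genes tested (9.24% higher and 9.37% lower). Groups did not overlap for 5 of the 10, against 20.8% of all genes. Trim71 was the gene deleted and Ccr4 entered the test through the group in which it is high, so these shares say little of the neighbourhood. Without them 2 of 8 were called. The median difference of the 8 was 0.04, against -0.0028 over all genes tested.

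Gpd1l encodes a relative of the cytosolic glycerol-3-phosphate dehydrogenase. It had 5.80, 5.74, 5.79 and 5.64 in the Trim71-KO libraries 1A, 2B, 3A and 3B, against 6.07, 5.95, 6.21 and 6.05 in the Trim71-cond libraries of the same codes. The groups did not overlap. Gpd1l fell by 0.32 ± 0.08 on the log2 scale (SE; limma adjusted p = 0.0085), to 79.9% of the Trim71-cond level. Without the 2 libraries of code 3B the difference was -0.30 and the adjusted p 0.0501.

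Pdcd6ip encodes ALIX, an adaptor that recruits the ESCRT machinery to membranes that are to be cut. It had 7.04, 7.30, 6.94 and 6.90 in the Trim71-KO libraries 1A, 2B, 3A and 3B, against 6.76, 6.72, 6.75 and 6.79 in the Trim71-cond libraries of the same codes. All 4 Trim71-KO values were above all Trim71-cond values, and the library 2B stood highest. Pdcd6ip rose by 0.29 ± 0.08 (SE; limma adjusted p = 0.015), a 1.22-fold higher value. Without the Trim71-KO library 2B the difference was 0.21 with an adjusted p of 0.061, and without both libraries of code 2B it was 0.19 with an adjusted p of 0.11.

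Crtap, whose protein belongs to a complex that hydroxylates prolines of collagen, gave 5.45, 5.01, 5.48 and 5.34 in Trim71-KO (1A, 2B, 3A, 3B) against 5.48, 5.65, 5.57 and 5.59 in Trim71-cond. The groups stood apart by a narrow margin, and the library 2B was again the farthest out. The difference was -0.25 ± 0.10 (SE; limma adjusted p = 0.072), and without both libraries of code 1A it was -0.33 with an adjusted p of 0.046. Without the Trim71-KO library 2B it was -0.15 with an adjusted p of 0.26, and without both libraries of code 2B -0.12 with an adjusted p of 0.40.

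Fbxl2, an F-box protein that selects substrates for an SCF ubiquitin ligase, gave 4.11, 4.24, 4.10 and 3.96 in Trim71-KO (1A, 2B, 3A, 3B) against 3.91, 3.74, 4.04 and 3.68 in Trim71-cond. The groups overlapped. The difference of 0.26 ± 0.09 (SE) had a limma adjusted p of 0.0502, which became 0.045 after quantile normalization. Leaving out a library or a code gave differences of 0.18 to 0.33 (adjusted p from 0.024 to 0.27), and 11.2% of the exonic bases of Fbxl2 are shared with Ubp1.

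Clasp2, whose protein stabilises the growing ends of microtubules, differed by 0.15 ± 0.06 (adjusted p = 0.062) between Trim71-KO and Trim71-cond. Its difference was -0.06 in code 1A and 0.20 to 0.24 in the other codes, and without code 1A it was 0.22 with an adjusted p of 0.027. For Cnot10 the difference was 0.11 ± 0.07 (adjusted p = 0.26). Glb1, the lysosomal beta-galactosidase, differed by -0.07 ± 0.07 (adjusted p = 0.51), and Dync1li1, a light intermediate chain of cytoplasmic dynein, by -0.03 ± 0.06 (SE; adjusted p = 0.77, limma). The 95% intervals of the 4 differences ran from -0.21 (Glb1) to 0.27 (Clasp2), so a change of the size seen for Trim71 or Ccr4 lay outside them.

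**Figure D2:**
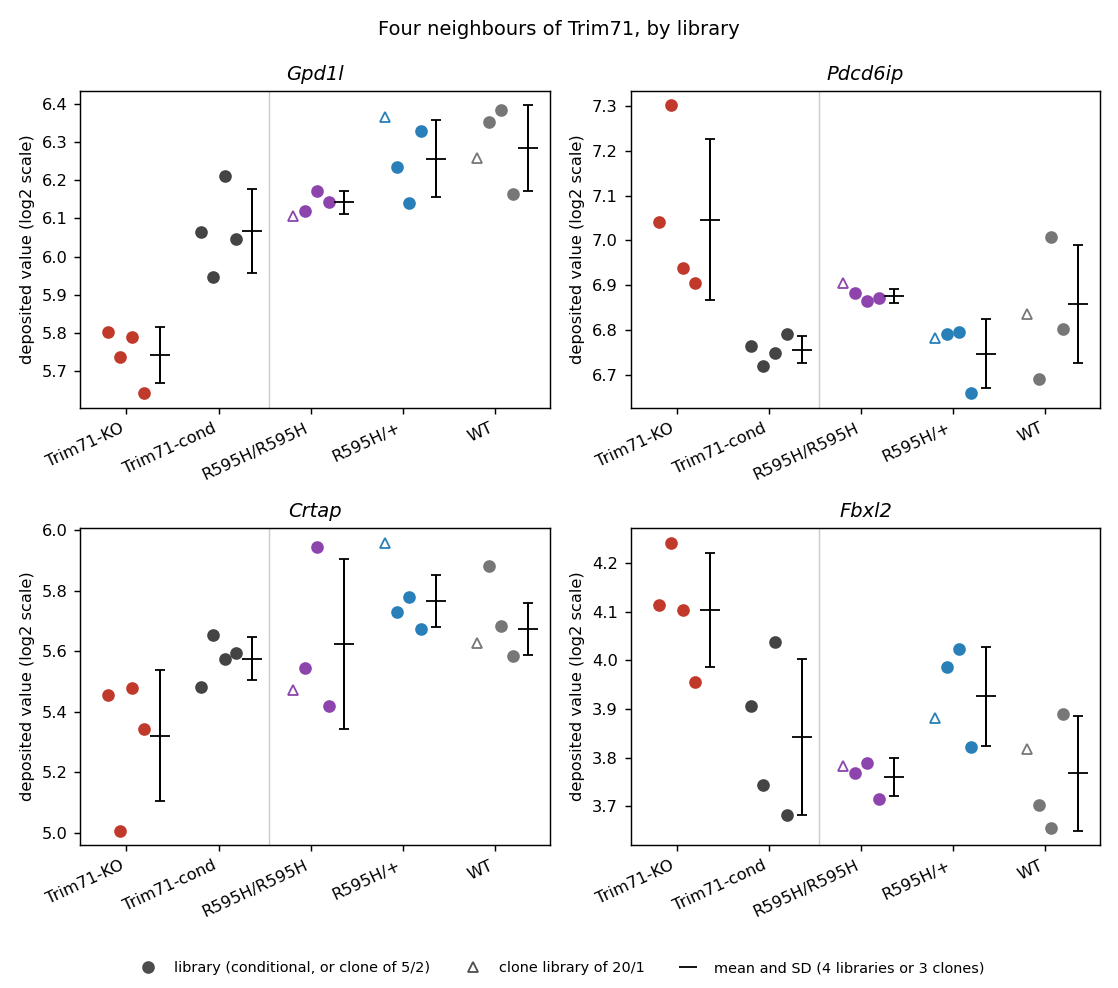
Deposited values (log2 scale) of Gpd1l, Pdcd6ip, Crtap and Fbxl2 in every library, with the mean and SD of 4 libraries (Trim71-KO, Trim71-cond) or 3 clones (R595H/R595H, R595H/+, WT) in black and the 20/1 libraries as open triangles. Trim71-KO values of Gpd1l lie below and those of Pdcd6ip above all Trim71-cond values, and the library with the highest Pdcd6ip (7.30) has the lowest Crtap (5.01).

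In the clones, Trim71 was higher in R595H/R595H, and no neighbour was called. Trim71 had 10.14, 10.00 and 10.18 in the R595H/R595H clones C14, C20 and C24, against 9.53, 9.49 and 9.48 in the WT clones C16, C7 and C5. The R595H/+ clones C15, C21 and C23 had 9.55, 9.63 and 9.57. The R595H/R595H clones lay above all others, and the clone means of R595H/+ lay just above those of WT without overlap. By library they did overlap, as R595H/+ C15 at 20/1 (9.51) was below WT C16 at 20/1 (9.52) and at 5/2 (9.54). The difference of R595H/+ from WT was -0.01 within the 20/1 libraries and 0.09 within the 5/2 libraries.

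The difference of R595H/R595H from WT was 0.61 ± 0.07 (SE) on the log2 scale, or 1.53-fold (limma adjusted p = 0.00063), and that of R595H/R595H from R595H/+ was 0.53 ± 0.07 (SE; adjusted p = 0.0052). R595H/+ differed from WT by 0.08 ± 0.07 (SE; adjusted p = 0.83), with a 95% interval from -0.06 to 0.23. Among 9587 genes Trim71 ranked 4 by p in R595H/R595H against WT and 30 by size of difference. The two-sided exact permutation p was 0.1 in each of the 3 comparisons, the smallest that 3 against 3 clones allow. Within the 20/1 libraries, with 1 clone per group, Trim71 was 0.62 higher in R595H/R595H C14 than in WT C16, and within the 5/2 libraries the group difference was 0.61.

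Ccr4 stayed low in the clones, with 3.16, 2.81 and 3.34 in the R595H/R595H clones C14, C20 and C24, 3.15, 2.91 and 3.25 in the R595H/+ clones C15, C21 and C23, and 3.07, 3.12 and 2.96 in the WT clones C16, C7 and C5. The 3 groups overlapped, and their means of 3.10, 3.10 and 3.05 were within 0.06 of that of Trim71-cond (3.06). These values were below the filter, so Ccr4 was not part of the main test. Without the filter limma gave a difference of 0.06 with an adjusted p of 0.84 for R595H/R595H against WT.

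Of the 9 genes tested in the clones, Trim71 alone was called in R595H/R595H against WT, where 3.42% of all genes were, and in R595H/R595H against R595H/+, where 0.772% were. In R595H/+ against WT 0 of the 9 were called, as 0.00% of all genes were, although 734 genes had an unadjusted p under 0.05. Among the 8 neighbours tested, differences of R595H/R595H from WT ran from -0.14 (Gpd1l, adjusted p = 0.37, limma) to 0.17 (Dync1li1, adjusted p = 0.24), and the other 6 lay between. The Dync1li1 values were 8.18, 8.13 and 8.19 in R595H/R595H (C14, C20, C24) against 8.14, 7.82 and 8.04 in WT (C16, C7, C5), and the groups overlapped through C16. The Gpd1l values were 6.11, 6.17 and 6.14 in R595H/R595H against 6.31, 6.16 and 6.38 in WT, and C7 lay within the R595H/R595H range. The Pdcd6ip difference was 0.02, with a 95% interval from -0.16 to 0.20.

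Differences between R595H/+ and WT ran from -0.11 (Pdcd6ip) to 0.16 (Fbxl2), with adjusted p-values of 0.71 or more. Groups did not overlap for 1 of 9 genes, Trim71, in R595H/R595H against WT (29.7% of all genes) and in R595H/+ against WT (12.5%). In R595H/R595H against R595H/+ they did not overlap for 4 of 9 (25.4% of all genes), Trim71, Pdcd6ip (0.13), Fbxl2 (-0.17) and Dync1li1 (0.09), of which the last 3 had adjusted p-values from 0.31 to 0.59 by limma.

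**Figure D3:**
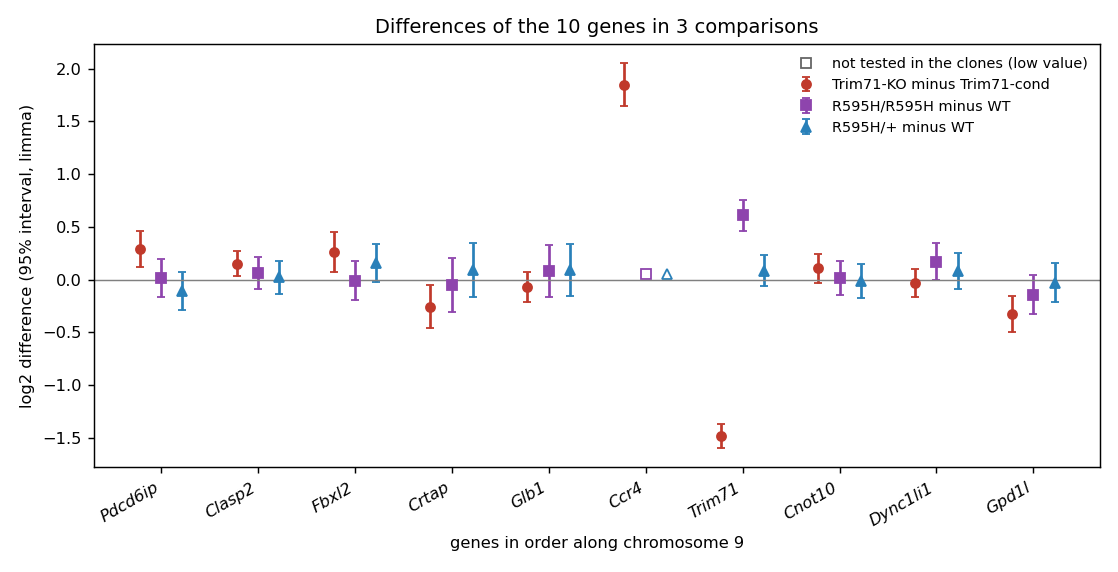
Log2 differences of the 10 genes, in their order along chromosome 9, between Trim71-KO and Trim71-cond, R595H/R595H and WT, and R595H/+ and WT, with 95% intervals from limma; open symbols mark Ccr4 in the clones, where it was not tested. Trim71 (-1.48) and Ccr4 (1.85) stand apart after deletion, Trim71 (0.61) stands apart in R595H/R595H, and the other differences lie between -0.32 and 0.29.

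The deletion and the homozygous R595H change differed most in Trim71 and Ccr4. The Trim71-KO effect on Trim71 (-1.48) minus the R595H/R595H effect (0.61) was -2.09 ± 0.08 (SE; limma adjusted p = 8.1e-17). For Ccr4 the effects of 1.85 and 0.06 differed by 1.79 ± 0.16 (SE; adjusted p = 2.7e-08). Ccr4 entered this fit, too, only through the Trim71-KO libraries, with means of 3.05 to 3.10 in the other groups, so its adjusted p is set in part by that group. Of the 9585 genes tested 1.42% were called, and Trim71 had the smallest p. No other of the 10 was called, the nearest being Pdcd6ip with a difference of effects of 0.27 ± 0.12 (SE; adjusted p = 0.23). The effects come from separate systems, so genotype and system cannot be told apart. The reference groups of the systems, with a floxed allele in Trim71-cond and none of these changes in WT, overlapped for the other 9 genes. In Trim71 they were themselves apart without overlap, at 8.95 ± 0.04 in Trim71-cond (SD, n = 4) and 9.50 ± 0.03 in WT (SD, n = 3). From low to high, Trim71 thus stood in the order Trim71-KO, Trim71-cond, WT, R595H/+ and R595H/R595H, and of the neighbours in that order WT and R595H/+ did not pass the test, while Trim71-cond and WT, which belong to separate systems, were not tested.

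Other genes of the same stretch gave no calls. Between Pdcd6ip and Gpd1l, the outermost of the 10, the annotation has 18 protein-coding genes, and 16 of them were in the table. The 6 that are not among the 10 are Ubp1, Susd5, Tmppe, Cmtm6, Cmtm7 and Cmtm8. Of these 4 passed the filter, and 0 were called in any comparison (0 also at an unadjusted p under 0.05), with differences of Trim71-KO from Trim71-cond between 0.0050 and 0.19. Within 5 Mb on either side, 61 of 90 protein-coding genes were in the table. Of the 35 that passed the filter in the conditional system and are not among the 10, 2 were called higher and 6 lower in Trim71-KO, where 9.24% and 9.37% of all genes tested were, and all 8 lay between 3613 and 4732 kb away. They were Als2cl (0.31) and the pluripotency coreceptor gene Tdgf1 (0.30), which rose, and Nme6, Cdc25a, Dhx30, Lrrc2, Vill and Plcd1, which fell by 0.23 to 0.36. Only 6 of the 35 lay within 1 Mb of Trim71 and 29 lay beyond, so the distances of the calls follow in part where tested genes lie. In R595H/R595H against WT, 1 of 36 was called, Exog (0.38).

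**Figure D4:**
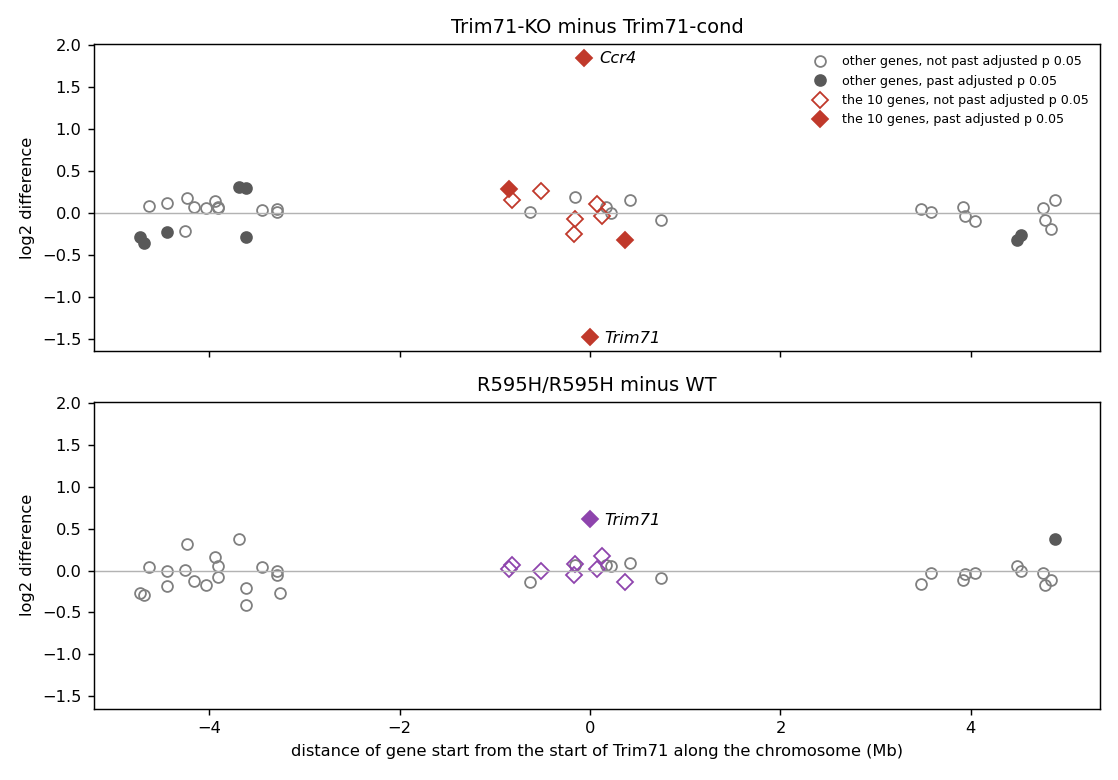
Log2 differences of the tested genes within 5 Mb of Trim71 against the distance of their starts from that of Trim71 in Mb (negative towards lower coordinates, the side on which Trim71 ends and Ccr4 lies), for Trim71-KO minus Trim71-cond (upper plot) and R595H/R595H minus WT (lower plot). Diamonds are the 10 genes, circles the others, and filled symbols have an adjusted p under 0.05; the differences of 1.85 (Ccr4) and -1.48 (Trim71) are the extremes of the upper plot.

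The genes that work with the neighbours were also counted, from lists drawn up around each. The counts stand against 18.6% of all genes called after deletion and 3.42% in R595H/R595H against WT, and nothing particular to a list is read from them. Of the CCR4-NOT complex, to which Cnot10 belongs, 13 of 14 passed the filter. In Trim71-KO against Trim71-cond 0 rose and 2 fell, the subunit Cnot9 (-0.25 ± 0.06 SE, limma adjusted p = 0.0053) and the deadenylase Cnot6l (-0.21 ± 0.07, adjusted p = 0.038), and the median difference was -0.02. None of the 13 was called by limma in the clonal comparisons, with 3 at an unadjusted p under 0.05 in R595H/R595H against WT.

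Among 12 genes of the ESCRT machinery, Pdcd6ip, already counted above, rose in Trim71-KO and 3 of the other 11 fell: its partner Pdcd6 (-0.27 ± 0.07 SE), Chmp3 (-0.31 ± 0.09) and Chmp4b (-0.25 ± 0.07), with limma adjusted p-values from 0.013 to 0.023 and a median over the list of -0.09. In R595H/R595H against WT 1 of 12 rose, the ATPase gene Vps4a (0.35 ± 0.09 SE, adjusted p = 0.039). Of 13 dynein and plus-end genes 1 fell in Trim71-KO, the light chain gene Dynll1 (-0.29 ± 0.08 SE, adjusted p = 0.018, limma), and 0 were called in R595H/R595H (1 unadjusted).

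Of the lysosomal hydrolases, 11 of 12 passed. In Trim71-KO, Gaa (0.29 ± 0.08 SE) and Manba (0.39 ± 0.11) were among those that rose, with limma adjusted p-values of 0.018 and 0.021, and 0 fell, although the median was -0.07. In R595H/R595H against WT 3 rose, Hexa (0.35 ± 0.08), Gaa (0.40 ± 0.11) and Manba (0.52 ± 0.10), with a median of 0.22 (-0.0023 over all genes tested) and limma adjusted p-values from 0.016 to 0.049. Of 11 genes of collagen prolyl hydroxylation and folding tested in the conditional system, Plod2, a lysyl hydroxylase gene, rose by 0.48 ± 0.09 and the collagen chaperone gene Serpinh1 fell by 0.29 ± 0.09 (SE; limma adjusted p = 0.0010 and 0.035).

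Of 18 RNA pathway genes linked to TRIM71 that passed the filter, 5 rose and 2 fell in Trim71-KO (9.24% and 9.37% of all genes tested), with a median of 0.04. Lin28a, which blocks let-7 maturation, fell by 0.89 ± 0.12 (SE), and the nonsense-mediated decay kinase gene Smg1 fell by 0.17 ± 0.05. Lin28b, the paralog of Lin28a, rose by 0.44 ± 0.09, the Argonaute partner genes Tnrc6a and Tnrc6b by 0.20 ± 0.06 and 0.30 ± 0.07, Ago3 by 0.26 ± 0.08 and the exonuclease gene Xrn1 by 0.21 ± 0.06, with limma adjusted p-values up to 0.028 for the 7 genes. In R595H/R595H against WT, Lin28a fell by 0.65 ± 0.11 (SE; adjusted p = 0.0091) and was the only one of the 18 called.

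The genes whose pattern was most like that of Trim71, by Pearson correlation over 17 libraries or clones after the mean of each system was subtracted, were Tmco3 (r = 0.93), Maged1 (0.92), Lgals1 (0.90), Gbp9 (0.89) and Hvcn1 (0.86), out of 9357 genes. For Ccr4 they were Cyp2b23 (0.94), Slc25a30 (0.93), Mbnl1 (0.92), Fam111a (0.92) and Gigyf2 (0.92). The r are descriptions: the points share one scaled table, and differences between the group means enter them. Cyp2b23 had a mean of 5.11 in Trim71-KO and 4.34 in Trim71-cond. Tmco3 had a mean of 3.46 in Trim71-KO and 3.85 in Trim71-cond.

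The libraries of one clone taken on both dates gave a measure of repeat error. Between 20/1 and 5/2, Trim71 moved by 0.08 at most and Ccr4 by 0.06 at most in C14, C15 and C16. Glb1 moved most, with 7.22 (20/1) and 7.21 (5/2) in R595H/R595H C14, 7.55 and 7.21 in R595H/+ C15, and 7.21 and 7.55 in WT C16. Its change of 0.35 in C16 was larger than its difference between any of the genotype groups, and Crtap moved by 0.26 in C16 and by -0.23 in C15. The 20/1 library of C15 carries a day label of 5 February that disagrees with its title. The Y-linked mean was 3.81 (20/1) and 3.95 (5/2) in C14, 5.24 and 4.90 in C15, and 4.09 and 3.70 in C16, so C15 was the highest of the 3 on both dates while C14 and C16 changed places.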

How the data were processed

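The deposited table gives 1 value per gene and library for 20 libraries. Per the labels' protocols, total RNA was extracted with TRIZOL, libraries were made with the TruSeq RNA v2 kit and sequenced in pairs on a HiSeq1500. STAR, DESeq2 and CASAVA 1.8 appear in the submitters' processing notes. No source used here gives the build, annotation, counting step or transformation. The deposited values (-0.65 to 18.0) are on a log scale, taken to be log2 and like regularized log values, which draw low genes such as Ccr4 towards their mean, so that folds may be understated. Reads cannot be recovered from them, depth is unknown, and no interval covers counting error.

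Differences were fitted with limma 3.58.1 in R 4.3.3 (lmFit and eBayes with trend and robust) on the values as deposited, for genes whose mean over the libraries of a fit reached 3.32 (a linear value of 10). Adjusted p-values are Benjamini-Hochberg over all genes tested, with calls under 0.05. The 8 conditional libraries had one fit and the 9 clone means (dates averaged per clone) another; the difference of effects came from a fit of all 17. Each of the 10 genes was also tested alone by exact permutation, two-sided. The fits were also run on simulated data with independent normal noise and no shared effects of day or clone. That run cannot show that the p-values hold for these data. Where nothing says that libraries came from separate cultures or deletions, p-values measure the spread between these samples, which may be technical.

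All 10 members are named in every comparison; of other genes, those called and on a list or within 5 Mb of Trim71. The members and lists were chosen with earlier results of these data known. Libraries of the same replicate code carry the same day number in the labels (3A and 3B share one). The fit and the permutation test were unpaired, and the code as a block was an alternative. The correlation of deviations between same-coded libraries was -0.89 (1A), -0.09 (2B), -0.12 (3A) and 0.13 (3B). Between libraries of unlike codes it ran from -0.15 to 0.43. The libraries of code 1A thus deviated from their groups in opposite directions, unlike the shared shift that a block assumes, and the cause was not tested. Positions are from GENCODE M21 (GRCm38) and promoters from RefSeq (GRCm38.p6, all 10 symbols matched); the build may not be that of the authors. Alternatives were the filter, scaling, added constant, moderation, replicate block, Y-linked covariate, dates, and each library or clone left out.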

Additional observations from a re-analysis of the deposited data

Results flagged for a closer look

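In 2 of the 10 genes the deletion effect and the homozygous R595H effect differed by a test of the difference itself. For Trim71, subtracting the effect in R595H/R595H from that in Trim71-KO gave -2.09 on the log2 scale, with every Trim71-KO library below every Trim71-cond library and every R595H/R595H clone above every WT clone. For Ccr4 the same subtraction gave 1.79, from a difference of 1.85 in the conditional system and of 0.06 in the clones. Ccr4 entered that fit only through the Trim71-KO libraries, so its test is set in part by the group where it is high. For both genes the effects come from separate systems, so genotype and system cannot be told apart. No single library stood far enough from the others of its group to be marked in the 20 groups of 4 libraries examined, where chance marks about 1 in 20. These groups hold the values of the 10 genes in Trim71-KO and Trim71-cond only.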

How the results depend on the processing

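The calls of Trim71 and Ccr4 after deletion, of Trim71 in R595H/R595H against both other genotypes, and of both genes in the difference of effects held under every alternative run for them. For Ccr4, only the run without the filter is free of its selection through the Trim71-KO libraries, and the other runs that tested it kept that selection. Without the filter its difference after deletion was 1.85 (limma adjusted p = 9.1e-11). Trim71 ranged from -1.50 to -1.47 (19 alternatives) after deletion, from 0.57 to 0.67 in R595H/R595H against WT (18) and from 0.49 to 0.58 against R595H/+ (18, with an adjusted p of 0.048 under the Y-linked covariate), and Ccr4 from 1.73 to 1.92 (18; under the stricter filter of 20 on the linear scale it was not tested). Of 902 values of the 10 genes under an alternative, 857 kept direction and side of the threshold. With the replicate block, 1392 genes were called after deletion against 1783 without it, and it changed no call of the 10 genes. Leaving out libraries or clones in turn gave 988 to 1634 calls after deletion (988 without code 2B, 1126 without 3B, 1132 without 3A), 67 (without C14) to 541 (without C21) for R595H/R595H against WT, with 68, 73 and 81 without C7, C5 and C16 and 170 without C15, 7 (without C14) to 80 for R595H/R595H against R595H/+, and 40 (without C7) to 225 (without C21) for the difference of effects. For R595H/R595H against WT the count was 191 with the 5/2 libraries only, 157 with equal back-transformed totals and 135 with the Y-linked covariate, against 328. Against R595H/+ it was 17 with the 20/1 library for the clones that have one and the 5/2 library for the rest. It was 19 with equal totals, 5 with the Y-linked covariate and 116 without the filter, against 74. The cause was not tested. Signs reversed only among differences that were not called. With equal totals, Cnot10 (-0.018) and Pdcd6ip (-0.017) in R595H/R595H against WT and Cnot10 (-0.0042) against R595H/+ did so. With the 5/2 libraries, Fbxl2 (0.0084) in R595H/R595H against WT, Glb1 (-0.021) in R595H/+ against WT and Glb1 (0.043) in R595H/R595H against R595H/+ did. With the same mix of 20/1 and 5/2 libraries, Pdcd6ip (-0.0023) in R595H/R595H against WT, and Cnot10 (0.022) and Gpd1l (0.0099) in R595H/+ against WT did. Leaving out libraries, codes or clones in turn gave ranges across 0 for Dync1li1 after deletion (-0.067 to 0.0024). In R595H/R595H against WT the ranges were -0.00094 to 0.029 for Cnot10, -0.21 to 0.052 for Crtap, -0.023 to 0.16 for Glb1, -0.029 to 0.093 for Pdcd6ip, -0.066 to 0.053 for Fbxl2 and -0.0034 to 0.11 for Clasp2. In R595H/+ against WT they were -0.052 to 0.057 for Cnot10, -0.088 to 0.030 for Gpd1l, -0.0077 to 0.15 for Dync1li1 and -0.044 to 0.066 for Clasp2, and in R595H/R595H against R595H/+ -0.040 to 0.069 for Cnot10 and -0.12 to 0.063 for Glb1. The unknown depth limits all low genes, Ccr4 and Fbxl2 first.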
